A study of Mus musculus with 6 samples.

Results

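The matrix metalloproteases (MMPs), the ADAMTS proteases, the protease-free ADAMTS-like proteins and the tissue inhibitors of metalloproteases (TIMPs) were followed in the carotid body, the small paired organ of the neck whose type I (glomus) cells sense blood oxygen. A probe set, the group of short probes that reads 1 transcript region, was a member where the platform annotation gave it a single gene symbol that is Mmp, Adamts or Adamtsl with a number, or Timp1 to Timp4. This gave 78 of 45101 probe sets, for 42 of 18193 genes named by a probe set of their own. Each of 6 arrays was hybridised with RNA of carotid bodies pooled from male mice of an inbred strain at 28 days of age. The 3 DBA/2J pools came from 19, 18 and 19 mice (38, 36 and 38 carotid bodies), and the 3 A/J pools from 20, 21 and 19 mice (40, 42 and 38 carotid bodies). No pool was treated, neither strain is a control of the other, and a pool rather than a mouse is the replicate. DBA/2J and A/J are known as a strain with a strong and one with a weak rise of breathing in low oxygen, and the comparison asks which of these genes differ between their carotid bodies.

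MMPs are zinc proteases that cut collagens, laminins and other matrix proteins, and most are made as inactive precursors. ADAMTS proteases carry thrombospondin repeats and cut proteoglycans such as versican and aggrecan, or trim procollagens, while ADAMTS-like proteins share the repeats but have no protease domain and in several cases bind fibrillin microfibrils. TIMPs block the active site of MMPs, and some TIMPs that of some ADAMTS proteases. TIMP2 also takes part in the activation of pro-MMP2 by the membrane-bound MMP14.

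A single gene of the family passed the test between the strains. Adamts20, an ADAMTS protease related to the versican-cleaving members and needed in mice for the spread of coat pigment cells, was higher in DBA/2J. Adamtsl1 and Mmp3 read higher and Timp4 lower in DBA/2J without passing after adjustment, while the brightest probe sets of Mmp2, Timp2 and Timp3 had log2 differences of 0.04, -0.16 and -0.22. The windows around the annotated starts of 3 of these genes are given first, from RefSeq (GRCm38.p6), each with 250 bases before and 50 bases after the start. Of the 42 genes, 27 had such a window. Adamts20 is shown as the gene that passed. Timp4 read lower with both of its probe sets, each at an unadjusted limma p under 0.05. Mmp3 had a wide spread between arrays and lies in a gene cluster with a shared start layout. Capitals mark TATAAA on the gene's strand and TGANTCA, the letters of an AP-1 site, on either strand.
Adamts20, chr15:94404301-94404600, minus strand: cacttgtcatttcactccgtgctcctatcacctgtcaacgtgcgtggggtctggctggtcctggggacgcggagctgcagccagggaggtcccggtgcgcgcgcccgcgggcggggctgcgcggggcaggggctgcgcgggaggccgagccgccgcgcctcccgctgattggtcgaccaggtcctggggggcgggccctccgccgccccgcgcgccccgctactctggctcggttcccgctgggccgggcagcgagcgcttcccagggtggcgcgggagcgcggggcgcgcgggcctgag
Timp4, chr6:115252156-115252455, minus strand: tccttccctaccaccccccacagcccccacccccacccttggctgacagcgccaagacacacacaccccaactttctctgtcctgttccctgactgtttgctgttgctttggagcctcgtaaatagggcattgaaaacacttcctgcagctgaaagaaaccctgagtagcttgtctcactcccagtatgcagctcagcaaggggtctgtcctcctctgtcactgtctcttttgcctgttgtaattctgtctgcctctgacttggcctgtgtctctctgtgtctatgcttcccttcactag
Mmp3, chr9:7445572-7445871, plus strand: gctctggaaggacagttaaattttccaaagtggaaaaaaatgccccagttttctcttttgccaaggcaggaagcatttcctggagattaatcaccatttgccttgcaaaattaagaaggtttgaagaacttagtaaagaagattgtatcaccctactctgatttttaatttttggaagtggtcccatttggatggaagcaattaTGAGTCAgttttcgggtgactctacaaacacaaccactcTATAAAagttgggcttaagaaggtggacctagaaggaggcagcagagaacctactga
The Adamts20 and Timp4 windows hold neither motif. The Adamts20 window holds 3 matches to GGGCGG, a motif found in 35.7% of all windows, searched on both strands, and the Timp4 window holds none.

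Mmp3 lies on chromosome 9 in a row of Mmp genes, 9 of which are members here, in the order Mmp13, Mmp12, Mmp1b, Mmp3, Mmp1a, Mmp10, Mmp8, Mmp20 and Mmp7. In 8 of these 9 genes, all but Mmp8, TGANTCA was followed by TATAAA within a window, with 12 to 41 bases between the motifs, and no other member's window held TGANTCA. Over all 32851 windows, 7.81% held TGANTCA and 8.32% held TATAAA. The stretches from the first motif to the end of the second show this layout, with both motifs in capitals.
Mmp13, chr9:7272479-7272503, plus strand: TGACTCAtcactatcatgcTATAAA
Mmp12, chr9:7347330-7347383, plus strand: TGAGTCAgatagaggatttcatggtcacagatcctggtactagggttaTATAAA
Mmp1b, chr9:7388070-7388119, minus strand: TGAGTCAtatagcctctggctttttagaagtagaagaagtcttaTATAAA
Mmp3, chr9:7445776-7445820, plus strand: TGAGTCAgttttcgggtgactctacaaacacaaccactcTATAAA
Mmp1a, chr9:7464068-7464118, plus strand: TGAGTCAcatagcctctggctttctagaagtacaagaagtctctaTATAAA
Mmp10, chr9:7502279-7502318, plus strand: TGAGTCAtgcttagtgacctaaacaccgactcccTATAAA
Mmp20, chr9:7628136-7628178, plus strand: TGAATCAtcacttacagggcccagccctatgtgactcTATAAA
Mmp7, chr9:7692027-7692069, plus strand: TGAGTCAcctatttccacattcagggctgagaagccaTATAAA
In 7 of the 8 stretches the first motif reads TGAGTCA or TGACTCA, and in Mmp20 it reads TGAATCA. A match of letters describes the window and does not show that a factor binds there. Of the 9 genes, 3 had a probe set bright enough to test: Mmp3, Mmp8 and Mmp7.

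The values are linear signal intensities, already brought to a common trimmed mean by the authors, with array medians between 163.6 and 183.0. With 3 arrays a strain, the number of arrays sets how precise a value can be. Correlations of log2 values across probe sets were 0.904 to 0.959 within a strain and 0.878 to 0.924 between strains, ranges that overlap. The ratio of 3' to 5' Gapdh control signal, a sign of RNA integrity and amplification length, was 2.5, 3.28 and 1.73 on DBA/2J arrays 1, 2 and 3, and 1.74, 4.87 and 1.81 on A/J arrays 1, 2 and 3. Marker lists moved with strain. Of 9 measured type I (glomus) cell markers, 5 rose (Chga, Chgb, Scg2, Olfr78 and Epas1) and 0 fell, and their summed signal was 62850.1 to 65875.7 in DBA/2J and 30352 to 35876.9 in A/J. All 10 skeletal muscle markers fell, with sums of 867.2 to 2025 in DBA/2J and 46538.2 to 107876 in A/J. Of 5 measured adipocyte markers, 2 fell and 0 rose, with sums of 22529 to 34257.7 in DBA/2J and 42924.5 to 57430.9 in A/J, and Lep was near 0 on all arrays (14.5 to 26.6 in DBA/2J, 17.1 to 26.4 in A/J). Sums of the 6 fibroblast markers overlapped, at 68381.1 to 90282.5 in DBA/2J and 87975 to 92289.1 in A/J. Mast cell marker sums were 6774.8 to 10449.2 in DBA/2J and 4089.9 to 4584.1 in A/J, with 1 of 5 markers (Cma1) risen. Endothelial sums (4194.2 to 5247.6 in DBA/2J, 3885.8 to 4019.9 in A/J) and macrophage sums (13365.6 to 18264.9 in DBA/2J, 18670.4 to 19314.7 in A/J) did not overlap either, though no marker of either list passed. Since each array reads pooled tissue, fewer cells of a type and less RNA per cell cannot be told apart. Whether the muscle and adipocyte RNA came from the carotid body itself or from tissue beside it was not tested.

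All tests are of log2(signal + 16), DBA/2J minus A/J, with limma fitted over the 27022 brightest probe sets and p adjusted by Benjamini-Hochberg over all of them. Of the 78 member probe sets, 49 for 29 genes were bright enough to be tested. Of these 49, 1 rose, against 1.86% of all tested probe sets, and 0 fell, against 1.41%. That is 2.04% called in either direction, a share that rests on 1 probe set, against a background of 3.27%. At an unadjusted limma p under 0.05 there were 4 higher, against a background of 7.89%, and 3 lower, against 7.46%, which makes 14.3% of the members in all and 15.3% of all tested probe sets. The arrays of the strains did not overlap for 4 members with DBA/2J above (background 11.5%) and 5 with DBA/2J below (background 9.54%). The median log2 difference was -0.01 over the 49 and 0.01 over all tested probe sets, with 24 members above 0 and 25 below. By a stand-in for the selection rule of the series (at least 6 of the 9 pairs of arrays at 1.5-fold or more in a direction, with an unadjusted limma p under 0.05), 4 were higher, against 5.19%, and 2 lower, against 4.79%, together 12.2% of the members and 9.98% of all. The members of that rule are the probe sets of Adamts20, Adamtsl1, Mmp3 and Timp4 named in the next paragraphs. With the brightest probe set standing for each of the 29 genes, 1 rose and 0 fell (limma), against 3.77% of all genes in either direction, and the median difference was -0.11. Of the 49 tested probe sets, 3 (Mmp11, a dim probe set of Mmp14 and one of Adamtsl5) were tested only because one strain was bright enough. Several probe sets were tested for 12 genes, and in 5 of the 12 they differed in sign.

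**Figure D1:**
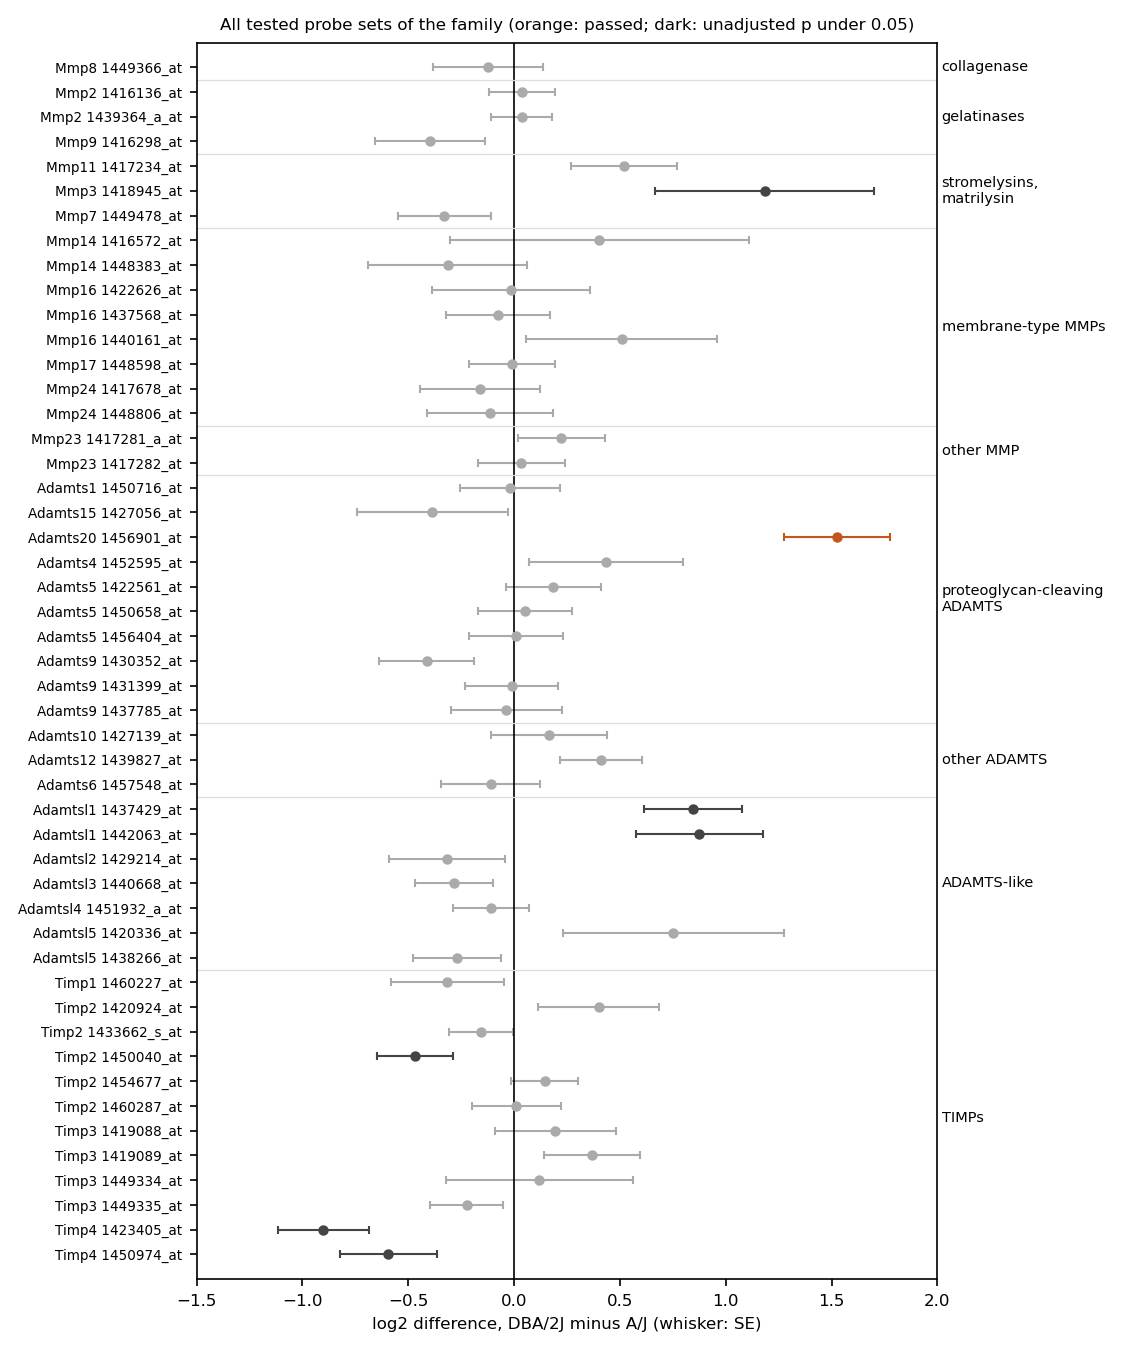
Log2 difference, DBA/2J minus A/J, of each of the 49 tested probe sets, grouped by role from collagenase to TIMPs, with whiskers of 1 SE. Adamts20 at 1.53 (orange) is the probe set that passed the test, the dark points had an unadjusted p under 0.05, and most others lie within 0.5 of 0.

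Among the proteoglycan-cleaving ADAMTS proteases, 10 of 13 probe sets were tested, 1 rose and 0 fell (limma). Adamts20, read by probe set 1456901_at alone, had signals of 433.8, 321.5 and 413.7 in DBA/2J, against 128.9, 158.2 and 92.3 in A/J. The groups did not overlap, with the lowest DBA/2J array well above the highest A/J array. The means were 389.7 ± 59.88 in DBA/2J and 126.5 ± 33.02 in A/J (SD, n = 3 arrays each). The log2 difference was 1.53 (SE 0.25, limma adjusted p = 0.0122), or 2.88-fold. This fold includes the constant added to each signal and is not the ratio of the means. With constants of 1 and 64 instead, the log2 difference was 1.64 and 1.26. The A/J signals were near the cutoff for testing, a signal of 114.1, with array 3 below it and arrays 1 and 2 above. Without detection calls, whether they are above background is unknown. The difference was between 1.21 and 1.74 in all 17 alternatives that tested the probe set, and passed in 11 of them. It missed the threshold by little without DBA/2J array 1 (limma adjusted p = 0.0752), A/J array 1 (0.0501) or A/J array 3 (0.0522), and clearly with array 2 as the only A/J array (0.324) or with arrays 2 and 3 of each strain alone (0.227). The remaining setting in which it did not pass, a block on a number shared by array titles, is given with the processing alternatives. Adamts20 was lowest on array 2 within DBA/2J and highest on array 2 within A/J, and each array 2 had its strain's highest ratio of 3' to 5' Gapdh signal. The part of RNA quality was not tested. The summed type I cell markers, given above, were higher on the same arrays, and their part in the Adamts20 difference was not tested.

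The other proteases of this group did not pass. Adamts1, which cuts versican and aggrecan, had 686.4, 960.1 and 1105.3 in DBA/2J and 1125.8, 827.7 and 817.2 in A/J, groups that overlap (log2 difference -0.02, limma adjusted p = 0.982). Adamts5, the main aggrecanase of mouse cartilage, was read by 3 tested probe sets with differences from 0.01 to 0.19, none over its SE. The brightest of them had 1082.8, 1553.5 and 1108.9 in DBA/2J and 1078.7, 892 and 1311.5 in A/J. Adamts9, a versican-cleaving protease, had differences of -0.41, -0.04 and -0.01 over 3 probe sets, and for the first of these every DBA/2J array (163.9, 186.5 and 250.8) was below every A/J array (276.7, 258 and 270.2), without passing. Adamts4, another aggrecanase, and Adamts15 had differences of 0.43 and -0.39. For Adamts15 the spread within a strain was wide, with 605.8, 268 and 578.2 in DBA/2J and 402.6, 821.9 and 652.5 in A/J. Adamts8 was too dim to be tested.

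Of the remaining ADAMTS proteases, Adamts12, Adamts10 and Adamts6 each had 1 tested probe set and 0 passed (limma), with 0 at an unadjusted p under 0.05. Adamts12, which cuts cartilage oligomeric matrix protein, had 1220.9, 1541.6 and 1177.5 in DBA/2J and 873.8, 1076.7 and 992.6 in A/J. Its strains did not overlap, but the difference of 0.41 (SE 0.19) did not pass (limma adjusted p = 0.365). Adamts10, which acts on fibrillin microfibrils, had a difference of 0.16 with overlapping arrays. The procollagen-trimming Adamts3, and Adamts7, Adamts16, Adamts18 and Adamts19, were not bright enough to be tested.

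**Figure D2:**
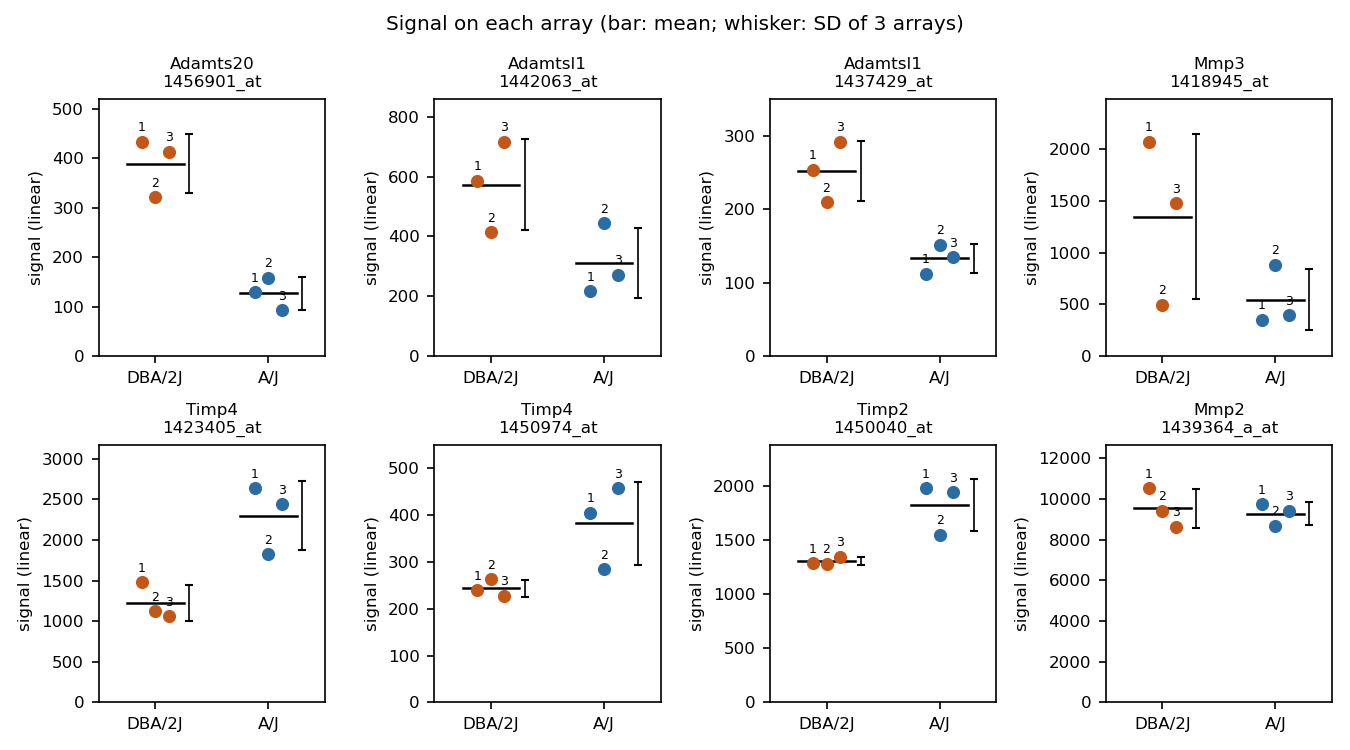
Linear signal on each array for 8 probe sets, with DBA/2J left of A/J in each panel, the array number beside each point, a bar at the mean and a whisker of 1 SD. The strains do not overlap for Adamts20, 1 of the Adamtsl1 probe sets, both Timp4 probe sets and the Timp2 probe set shown, and overlap for the other Adamtsl1 probe set, Mmp3 and Mmp2.

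The ADAMTS-like genes had 7 tested probe sets of 8, with 0 calls (limma) and 2 at an unadjusted p under 0.05, both of them of Adamtsl1, a secreted matrix protein also named punctin. Probe set 1437429_at read 253.9, 209.6 and 292 in DBA/2J, against 112.1, 151.8 and 134.8 in A/J, with every DBA/2J array above every A/J array (log2 difference 0.84, SE 0.23, limma adjusted p = 0.102). Probe set 1442063_at read 587, 413.9 and 717.4 in DBA/2J, against 216.9, 443.6 and 271.5 in A/J, where DBA/2J array 2 fell below A/J array 2 (log2 difference 0.88, SE 0.30, limma adjusted p = 0.191). With A/J array 2 as the only A/J array these differences were 0.66 and 0.32. A dimmer probe set, 1430313_at, left out of the main test, had a difference of 1.60 (SE 0.51, limma adjusted p = 0.210) with no filter. All 3 probe sets of Adamtsl1 read higher in DBA/2J on average. Among the alternative fits the first pair passed only with array weights (limma adjusted p = 0.0191 and 0.0244), and both were higher by the stand-in for the series' rule. Array weights called 3007 of the 27022 tested probe sets, against 883 in the main fit. Adamtsl2, Adamtsl3 and Adamtsl4 had differences of -0.32, -0.28 and -0.11, and did not pass. Adamtsl2 and Adamtsl4 bind fibrillin microfibrils. For Adamtsl3 the strains did not overlap, with 650.3, 605.9 and 740.5 in DBA/2J and 784.6, 763.6 and 891.9 in A/J. The probe sets of Adamtsl5 pointed opposite ways (-0.27 and 0.75), the second resting on 1 dim A/J array at 28.

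The stromelysins and matrilysin had 3 tested probe sets of 4, 0 calls (limma) and 1 at an unadjusted p under 0.05. Mmp3, stromelysin-1, which cuts many matrix proteins and activates other pro-MMPs, had 2071.4, 494.1 and 1477.4 in DBA/2J, against 349.7, 883.5 and 396.2 in A/J. DBA/2J array 2 was below A/J array 2, so the groups overlap. The means were 1348 ± 796.6 in DBA/2J and 543.1 ± 295.7 in A/J (SD, n = 3 arrays each), a log2 difference of 1.18 with a wide SE of 0.52 (limma adjusted p = 0.315). The value depended on single arrays: without DBA/2J array 2 it was 1.78 (limma adjusted p = 0.0284), without A/J array 2 it was 1.59 (0.208), and without DBA/2J array 1 it was 0.76 (0.692). The other 3 removals of an array gave 0.94 to 1.03. With arrays 2 and 3 of each strain alone it was 0.52 (0.922), and with array 2 as the only A/J array 0.38 (0.934). It also passed with array weights, at 1.87 (0.0161). In all, 3007 tested probe sets passed with array weights and 1338 without DBA/2J array 2, against 883 in the main fit.

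Mmp11, stromelysin-3, had 168.1, 180.6 and 154.8 in DBA/2J and 87.2, 112.8 and 141.4 in A/J, with no overlap, but it was tested only because DBA/2J was bright enough and did not pass (log2 difference 0.52, limma adjusted p = 0.378). Mmp7, matrilysin, had 175.9, 193.8 and 174.2 in DBA/2J and 274.2, 191.5 and 237 in A/J, with overlap at array 2 and a difference of -0.33 (limma adjusted p = 0.558). Mmp10, stromelysin-2, had signals of at most 38.7 and was not tested.

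The gelatinases and the collagenases had 4 tested probe sets together, 0 calls (limma) and 0 at an unadjusted p under 0.05. Mmp2, gelatinase A, which cuts denatured collagen and basement membrane, was read by a pair of bright probe sets. Probe set 1439364_a_at had 10520.4, 9424.6 and 8635.6 in DBA/2J and 9738.6, 8673.1 and 9416.7 in A/J, with full overlap and a log2 difference of 0.04 (SE 0.14, limma adjusted p = 0.946). The other Mmp2 probe set gave 0.04 (SE 0.16). Mmp9, gelatinase B, had 142.7, 190.2 and 136.8 in DBA/2J and 279.3, 193.7 and 169.2 in A/J, a difference of -0.40 (SE 0.26, limma adjusted p = 0.545) with overlapping arrays. Mmp8, the collagenase of neutrophils, was at 150.4, 177.8 and 103.5 in DBA/2J and 160.9, 168.7 and 137 in A/J. Neutrophil markers were dim too: none of the 4 measured was tested, and their sums were 262.9 to 441.4 in DBA/2J and 136.8 to 308.3 in A/J. Mmp13, Mmp1a and Mmp1b, the remaining collagenases, had signals no higher than 75.0 on any array and were not tested.

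Of the membrane-type MMPs, 8 of 11 probe sets were tested, with 0 calls (limma) and 0 at an unadjusted p under 0.05. Mmp14, a membrane-anchored collagenase and activator of pro-MMP2, had 1752.9, 967.7 and 1650.1 in DBA/2J, against 986.7, 2777.3 and 1970.6 in A/J on its brightest probe set. The A/J arrays alone span nearly the whole range, and the difference was -0.31 (SE 0.38, limma adjusted p = 0.774). A dim probe set of Mmp14 gave 0.40 (SE 0.71) and rested on A/J array 1 at 17.8, without which it was -0.49. Mmp17, which is held in the membrane by a lipid anchor, was close between strains (253.5, 300 and 275.4 in DBA/2J, 243.1, 283.3 and 310.3 in A/J). The transmembrane proteases Mmp16 and Mmp24 had differences from -0.08 to 0.51 over 3 probe sets and of -0.16 and -0.12. Mmp23 gave 0.03 and 0.22. Of the other MMPs, Mmp12, the macrophage elastase, Mmp19 and Mmp20, the enamel protease, were too dim to be tested.

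TIMPs had 12 of 13 probe sets tested, with 0 calls (limma) and 0 higher and 3 lower at an unadjusted p under 0.05. Timp4, the TIMP with the most restricted tissue range, known from heart, brain and fat, had 1480.6, 1121.2 and 1063.9 in DBA/2J, against 2636, 1824.3 and 2436.8 in A/J on probe set 1423405_at. Every DBA/2J array was below every A/J array. The means were 1222 ± 225.9 in DBA/2J and 2299 ± 423.0 in A/J (SD, n = 3 arrays each), a log2 difference of -0.90 (SE 0.22) that just missed the threshold (limma adjusted p = 0.0615). The second Timp4 probe set had 239.5, 263.4 and 227.9 in DBA/2J, against 404.9, 284.4 and 457.3 in A/J, again with no overlap (log2 difference -0.59, SE 0.23, limma adjusted p = 0.247). Among the alternative fits both passed only with array weights, which called 3007 probe sets in all (limma adjusted p = 0.0301 and 0.0469). Both were also lower by the stand-in for the series' rule. Within A/J, both Timp4 probe sets were lowest on array 2, which also had the lowest A/J sums of muscle markers (46538.2) and of adipocyte markers (42924.5). Within DBA/2J the brighter Timp4 probe set was highest on array 1 (1480.6), which had the lowest muscle (867.2) and adipocyte (22529) sums of that strain. It was lowest on array 3 (1063.9), where the sums were close to those of array 1 (874 and 22723.2). The dimmer one was highest on array 2 (263.4), which had the highest of both sums (2025 and 34257.7). A/J array 2 also had the highest ratio of 3' to 5' Gapdh signal (4.87). The part of muscle and fat RNA, and of RNA quality, in the Timp4 difference was not tested. With array 2 as the only A/J array the difference was -0.59 for the brighter probe set and -0.21 for the dimmer one.

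Timp2, a soluble inhibitor, and Timp3, which stays bound to the matrix, had probe sets that pointed both ways. For Timp2 the 5 tested probe sets had differences from -0.47 to 0.40. The brightest, 1433662_s_at, had 10075.6, 8213.6 and 7980.4 in DBA/2J and 9742.5, 10263.8 and 9145.1 in A/J, with overlap and a difference of -0.16 (SE 0.15). Probe set 1450040_at was lower on every DBA/2J array (1284.6, 1279 and 1345.3) than on any A/J array (1976, 1546.2 and 1939.6), a difference of -0.47 (SE 0.18, limma adjusted p = 0.243), while 1454677_at and 1460287_at gave 0.14 and 0.01 and the dim 1420924_at 0.40. For Timp3 the 4 probe sets ran from -0.22 to 0.37. Its brightest had 9386.7, 8171.2 and 7108.4 in DBA/2J and 10920.8, 8110.1 and 9833.7 in A/J (log2 difference -0.22, limma adjusted p = 0.633). Timp1, the inducible TIMP of wound healing, had 1883.7, 965.4 and 1068.1 in DBA/2J and 1657.8, 1726.7 and 1320.5 in A/J, with overlap and a difference of -0.32 (SE 0.27, limma adjusted p = 0.667).

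**Figure D3:**
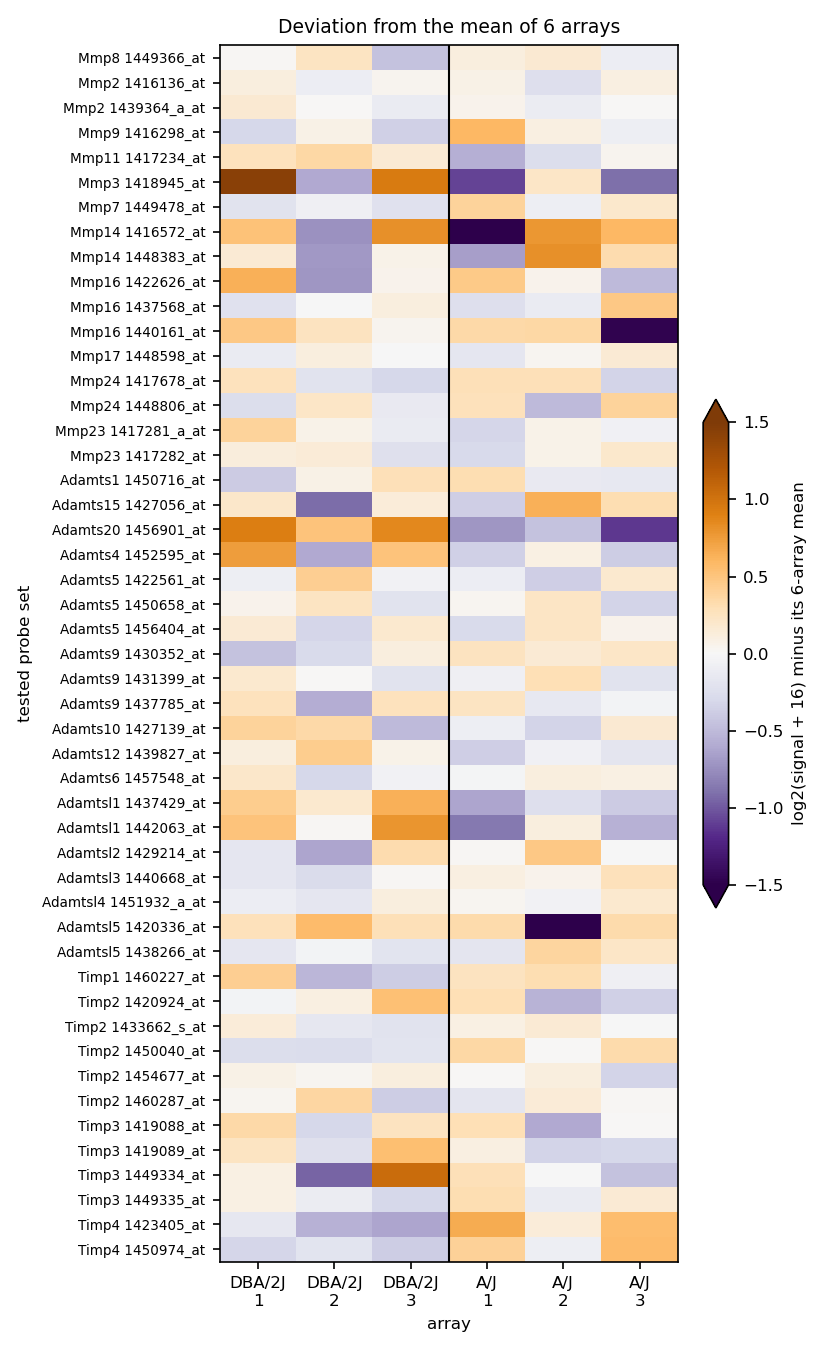
Deviation of log2(signal + 16) from its mean over 6 arrays for the 49 tested probe sets (rows, in the order of roles used for the differences), with the 3 DBA/2J arrays left of the 3 A/J arrays; orange is above the mean and purple below, and the colour scale ends at 1.5. Adamts20 and Adamtsl1 are mostly orange in DBA/2J, Timp4 is mostly orange in A/J, and Mmp3 and Mmp14 change from array to array within a strain.

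The 29 probe sets left out for low signal included every probe set of 13 genes. Signals of the 29 ran from 2.2 to 326.1, and the highest mean over the 6 arrays was 123.7. Whether they are above background is unknown, because no detection calls were used here. With no filter, 0 of the 29 passed (limma), against 1.82% of all probe sets in that fit. At an unadjusted p under 0.05 there was 1 higher, the dim Adamtsl1 probe set, against 6.62% of all, and 0 lower, against 6.06%. Over all 78 members the test without a filter again called 1, Adamts20 (adjusted p = 0.0276), which is 1.28% of them.

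The other genes of matrix turnover were taken from a list of 61 activators, inhibitors, ADAM proteases and substrates, of which 49 had a tested probe set, the brightest standing for the gene. Of the 49, 0 rose, against 2.17% of 13006 genes, and 1 fell, against 1.6% (limma). At an unadjusted p under 0.05 there were 4 higher (8.16%), against 9.3% of all genes, and 8 lower (16.3%), against 7.83%. The median log2 difference was -0.16, against 0.03 over all genes tested. The gene that fell was A2m, alpha-2-macroglobulin, which traps proteases of many classes. It had 86.2, 78.4 and 55.1 in DBA/2J, against 426.5, 338.7 and 357.4 in A/J, with no overlap (log2 difference -2.14, SE 0.24, limma adjusted p = 0.00181). A2m was tested only because A/J was bright enough, and the difference passed in 14 of the 16 alternatives that tested it, but not with arrays 2 and 3 of each strain alone (limma adjusted p = 0.0690) or with the block on the shared title number, given with the processing alternatives. The muscle and adipocyte marker sums were lower on the same DBA/2J arrays, and their part in the A2m difference was not tested.

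A pair of genes that just missed the threshold is named after their values were seen. Reck, a membrane-anchored inhibitor of MMPs, had 4048.6, 3117.8 and 4836.7 in DBA/2J, against 2314.5, 2289.7 and 2103.6 in A/J, with no overlap (log2 difference 0.81, SE 0.20, limma adjusted p = 0.0632). Adam12, a membrane protease of muscle and connective tissue precursors, had 296.4, 360.7 and 279.6 in DBA/2J, against 683, 501.5 and 588.4 in A/J (log2 difference -0.88, SE 0.21, limma adjusted p = 0.0576). The skeletal muscle marker sums, given above, were lower on the same DBA/2J arrays, and their part in the Adam12 difference was not tested. Both passed without DBA/2J array 2 (limma adjusted p = 0.0174 for Reck and 0.0382 for Adam12) and with array weights (0.00565 and 0.00737). Adam12 also passed with the arrays scaled to one median (0.0470). Without DBA/2J array 2, 1338 probe sets passed in all, and with array weights 3007, against 883 in the main fit. By role, 0 of 8 tested activators and procollagen proteases, 1 of 6 inhibitors and clearance genes, 0 of 9 ADAM proteases and 0 of 26 matrix substrates passed (limma). At an unadjusted p under 0.05 these lists had 1, 3, 0 and 0 genes higher and 1, 2, 2 and 3 lower, against the 9.3% and 7.83% of all genes.

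**Figure D4:**
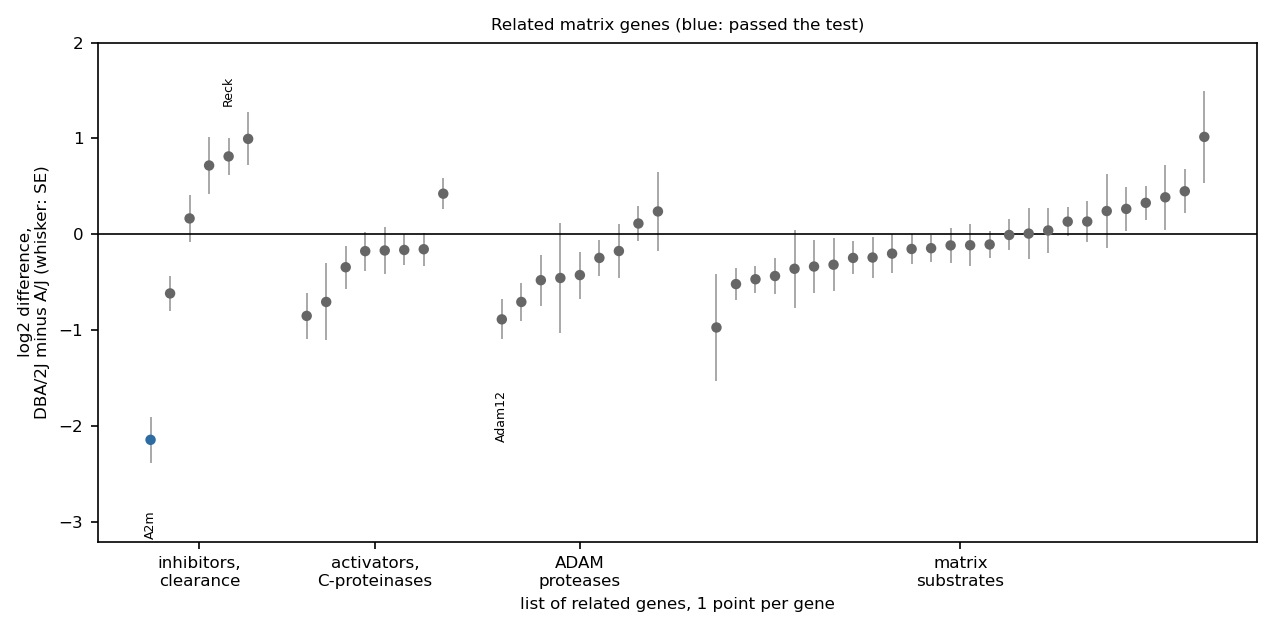
Log2 difference, DBA/2J minus A/J, of the 49 tested related genes by list, sorted within each list, with whiskers of 1 SE and the 3 genes given with values named. A2m at -2.14 (blue) is the gene that passed the test, and most of the others lie between -1 and 1.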

How the data were processed

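RNA of carotid body pools was hybridised to Affymetrix Mouse 430 2.0 arrays, 3 per strain, after small-sample amplification from the poly(A) tail, per the labels and the design text. The authors deposited linear signals (intensity, 1 decimal), whose 2%-trimmed mean was 500.0 on every array. The summary software was not given in the sources used here.

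Values were used as log2(signal + 16) with no further normalization, without 64 control probe sets. The upper 60% by mean (27022) were fitted with limma 3.58.1 in R 4.3.3 (lmFit, eBayes with intensity trend, two-sided, no covariate), adjusted by Benjamini-Hochberg at 0.05, and drawn with matplotlib 3.10.9. The procedure was tested on simulated data. Names came from GEO's annotation of the platform (34945 name 1 gene, 932 several, 9160 are not listed and unnamed here), and lists were matched through RefSeq gene identifiers (34741 of the 34945 matched). Named members are those that passed, those with an unadjusted p under 0.05, the 10 with the highest mean signal, the other tested probe sets of those genes, and fixed genes: the TIMPs, Mmp2, Mmp9, Mmp14, Adamts1 and Adamts5. Other members were described by role after their values were seen. Members and lists were chosen with earlier results of these data known. The labels do not state how pools were made beyond the numbers of mice, so p-values measure the spread between pools. The alternatives were other scalings, pseudocounts of 1 and 64, other filters, no trend, array weights, a number shared by array titles as a block, leaving out arrays, the mean of a gene's probe sets, and a stand-in for the series' rule (6 of 9 array pairs at 1.5-fold, unadjusted limma p under 0.05).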

Additional observations from a re-analysis of the deposited data

How the results depend on the processing

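The median difference of the 49 tested family members was -0.090 with the title number as a fixed replicate block and with arrays 2 and 3 of each strain alone, a setting added after seeing the data, and 0.11 with array weights, against -0.01; leaving out single arrays gave -0.055 to -0.0038. The count of 1 higher and 0 lower family probe sets became 0 higher with the upper 40% of probe sets, where Adamts20 was not tested, with the fixed block (1 residual degree of freedom), with arrays 2 and 3 alone and without A/J arrays 1 and 3 (also added later, leaving 1 A/J array that is assumed to vary like the others). It became 4 higher and 2 lower with array weights, where 1451 of all 27022 tested probe sets were higher and 1556 lower. The stand-in for the series' rule also gave 4 higher and 2 lower (background 5.19% and 4.79%). Leaving out single arrays gave 0 to 2 higher and 0 lower: 0 without DBA/2J array 1, A/J array 1 or A/J array 3, and 2 without DBA/2J array 2. Over all probe sets the calls numbered 883, against 0 with the fixed block, 3007 with array weights and 345 to 1338 without single arrays. Titles of arrays 2 and 3 share a number between the strains. The labels do not say what the number marks, and the main fit did not use it. Deviations from the strain means correlated at -0.26 and 0.04 in those pairs and at -0.26 to 0.20 in the others. These deviations are centred on 3 arrays per strain, so the correlations cannot decide whether the number marks a pairing. With the number as a fixed block the limma adjusted p was 0.373 for Adamts20 and 0.138 for A2m. As a random block (correlation -0.03) the number changed no call in the family or the related genes. Related genes, 0 higher and 1 lower, became 0 lower with the upper 40%, the fixed block, arrays 2 and 3 alone and without A/J arrays 1 and 3, 2 lower with one median, 4 higher and 7 lower with array weights, 2 and 4 with the series' rule and 2 and 2 with the mean of a gene's probe sets; single arrays left out gave 0 to 1 higher and 1 to 3 lower.

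Of 492 comparisons of named genes across settings, 431 kept their direction and their side of the threshold, 11 passed where they had not, 8 no longer passed and 42 turned sign, none of the last for a probe set with an unadjusted p under 0.05. The turned values follow. With arrays 2 and 3 alone, and equally with the fixed block, they were -0.0025 for Mmp2 1439364_a_at, -0.65 for Mmp14 1416572_at, 0.32 for Adamts1, -0.21 for Adamts5 1456404_at and -0.090 for Timp2 1460287_at. Quantile normalization gave -0.025 and one median -0.0050 for Adamts5 1456404_at, and one median -0.0023 for Timp2 1460287_at. Array weights gave -0.022 for Adamts5 1422561_at, 0.14 for Timp1 and 0.0052 for Timp2 1433662_s_at. Without A/J arrays 1 and 3 they were -0.58 for Mmp14 1416572_at, 0.12 for Adamts1, -0.22 for Adamts5 1456404_at, -0.21 for Adamts5 1450658_at, -0.040 for Timp2 1454677_at, -0.14 for Timp2 1460287_at and 0.011 for Timp3 1449335_at. Leaving out single arrays gave -0.038 to 0.10 for Mmp2 1439364_a_at, -0.071 to 0.098 for Mmp2 1416136_at, -0.49 to 0.87 for Mmp14 1416572_at, -0.72 to 0.015 for Mmp14 1448383_at, -0.17 to 0.17 for Adamts1, -0.13 to 0.17 for Adamts5 1456404_at, -0.10 to 0.18 for Adamts5 1450658_at, -0.17 to 0.21 for Timp2 1460287_at, -0.37 to 0.63 for Timp3 1449334_at and -0.056 to 0.40 for Timp3 1419088_at. The causes were not tested. Dim signals, with no detection calls, limit what can be said of the 29 untested probe sets.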

Other observations

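In 13 of the 49 tested members (26.5%), array 2 was the lowest of the 3 DBA/2J arrays and array 2 the highest of the 3 A/J arrays, against 14.6% of all tested probe sets; the reverse held in 5 members (10.2%), against 17.1%. The count was chosen after the values were seen, several members share a gene, and it has no test. The 13 belong to Adamts20, which passed the test, and to Adamts4, Adamts5, Adamts6, Adamts15, Adamtsl1, Adamtsl2, Mmp3, Mmp14, Timp1 and Timp2. Thbs2, thrombospondin-2, a matrix protein of the related list that limits MMP2 and was picked out after its values were seen, had 1480.7, 556.5 and 1257.2 in DBA/2J and 306, 1020 and 378.9 in A/J, the same order of arrays within each strain as Mmp3 (2071.4, 494.1 and 1477.4 in DBA/2J, 349.7, 883.5 and 396.2 in A/J). Both arrays numbered 2 had the highest Gapdh 3' to 5' ratio of their strain (3.28 in DBA/2J and 4.87 in A/J), though the order runs opposite ways in the strains. The part of RNA quality in this order was not tested.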
